A study of Mus musculus with 11 samples.

Results

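The genes described here are the IL-1 family ligands, their receptors, the decoy receptor and the antagonist: Il1a, Il1b, Il18 and Il33 among the ligands, Il1r1, Il1rl1, Il1rap and Il1rl2 among the signaling receptors and co-receptor, Il1r2 as the decoy and Il1rn as the antagonist. They were chosen by name, and 8 of these 10 genes were found among the 7868 genes of the deposited expression table. Il1rap and Il1rl2 were not among them. The table holds only genes with a p-value of at most 0.05 in the authors' comparison, so an absent gene either missed that limit or was never tested, and nothing can be said of its level.

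Colon tissue of 11 female wildtype mice was profiled by 3′ mRNA sequencing, in which reads come from the 3′ end of each transcript. The 4 naive mice were kept without treatment for the same time span as the 7 AOM/DSS mice, which received 1 intraperitoneal injection of the carcinogen azoxymethane (AOM, 10 mg/kg) on day 0 and drank 1.5% dextran sodium sulfate (DSS, an agent that injures the colon lining) in 3 cycles that began on day 7. A cycle had 5 days of DSS and 16 days of recovery, and the mice were killed on day 70. The table's own title names AOM/DSS tumor and naive full-thickness colonic tissue, and elsewhere the study also calls the tumors full-thickness, so that how the pieces were dissected is uncertain. Tumor tissue and treatment cannot be told apart, and the labels give neither the strain nor the age of these mice.

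Each gene comes with 1 least-squares mean per group on the authors' normalized scale and with no value per mouse. No SD, interval or test could therefore be computed, the methods give a planned read number but the reads behind each sample's values are unknown, and whether a difference exceeds the spread between mice was not tested here. Means were compared as log2(mean + 1) in AOM/DSS minus naive tissue, and a gene is said to have a higher or lower mean where this difference was at least 1 in size, which is 2-fold on that scale. Because each transcript is counted at its 3′ end, levels of different genes are set side by side without a length correction. The authors' normalization is not given in the sources used here, so such comparisons between genes are uncertain. The listed means summed to 547024 in naive and 554058 in AOM/DSS tissue.

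IL-1α and IL-1β, the products of Il1a and Il1b, bind the same receptor, IL-1R1, which recruits the co-receptor encoded by Il1rap and signals through MYD88 and IRAK kinases to NF-κB. The antagonist encoded by Il1rn occupies IL-1R1 without signaling, and IL-1R2 binds IL-1 but lacks a signaling domain. IL-18 and IL-33 are relatives with receptors of their own, and Il1rl2 encodes the receptor of the IL-36 ligands. In the intestine IL-18 is made by the epithelium, IL-33 mainly by stromal, endothelial and epithelial cells and IL-1β mainly by activated myeloid cells, and the study asked how IL-1 from the tumor environment acts on enteric glia.

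The promoters of Il1a, Il1b and Il1rn are printed because these 3 genes encode the competing ligands of IL-1R1 and lie on the same chromosome. The sequences are RefSeq's for mouse build GRCm38.p6 (mm10), written 5′ to 3′ on the strand of the gene, each with 250 bases before and 50 bases after the annotated start. Capitals mark a TATA motif (TATAAA) in Il1a, at chr2:129309923-129310222 on the minus strand, and in Il1b, at chr2:129371090-129371389 on the minus strand. In Il1rn, at chr2:24336610-24336909 on the plus strand, capitals mark an AP-1 motif (TGANTCA). Il1rn also has annotated starts farther downstream. Their promoters, at chr2:24345041-24345340 and chr2:24345121-24345420, are not printed and held no match to TGANTCA. Which start the Il1rn reads come from is unknown. The printed promoter therefore need not be that of the antagonist form that meets IL-1R1.
Il1a: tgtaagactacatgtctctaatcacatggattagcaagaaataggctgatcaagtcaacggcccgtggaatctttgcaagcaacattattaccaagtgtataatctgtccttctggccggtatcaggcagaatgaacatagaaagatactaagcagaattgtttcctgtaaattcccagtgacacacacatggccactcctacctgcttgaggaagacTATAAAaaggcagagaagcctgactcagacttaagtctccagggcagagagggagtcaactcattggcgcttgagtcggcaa
Il1b: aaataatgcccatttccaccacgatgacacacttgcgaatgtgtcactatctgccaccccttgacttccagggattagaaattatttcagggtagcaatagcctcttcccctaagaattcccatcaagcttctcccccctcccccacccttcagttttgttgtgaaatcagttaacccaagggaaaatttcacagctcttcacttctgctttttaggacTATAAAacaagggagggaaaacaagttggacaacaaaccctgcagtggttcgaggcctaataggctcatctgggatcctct
Il1rn: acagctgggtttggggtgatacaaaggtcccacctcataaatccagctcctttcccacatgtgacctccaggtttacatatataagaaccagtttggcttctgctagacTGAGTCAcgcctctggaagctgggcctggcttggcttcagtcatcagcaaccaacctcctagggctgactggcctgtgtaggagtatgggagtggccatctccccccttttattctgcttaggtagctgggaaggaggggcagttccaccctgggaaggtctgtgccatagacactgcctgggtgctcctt

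The TATA motif began 32 bases before the start of Il1a and 31 bases before the start of Il1b. On the gene's own strand and 20 to 40 bases before the start, this motif was present in 1.99% of the 32851 mouse promoters of the same length. An Il33 promoter, at chr19:29945540-29945839 and not printed, also held it in this window, 29 bases before the start. The AP-1 motif of Il1rn began 141 bases before the start of the printed promoter, and Il1a held another 12 bases before its start, left in lower case. With both strands searched, 7.81% of all promoters held TGANTCA. The 10 genes have 15 promoters, of which 2 held this motif and 7 held TATAAA anywhere on either strand (13.6% of all promoters). Motifs of the transcription factors NF-κB, C/EBP and PU.1 were searched as well. They were found in 0, 4 and 3 of the 15 promoters, and in 4.59%, 10.8% and 28.3% of all promoters. The marked motifs are thus a selection from those searched. A motif match is a description of sequence, and no binding was measured.

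Of the 8 listed genes, 6 had a mean at least 2-fold higher in AOM/DSS than in naive tissue, 0 had a mean at least 2-fold lower and 2 were within 2-fold. Among all 7868 listed genes, 20.9% were past 2-fold in the higher and 9.75% in the lower direction. The 8 genes had a median difference of 1.81 on the log2 scale, and all listed genes had one of 0.36. When every difference was taken relative to that overall median, 14.27% of all listed genes were higher and 21.59% lower, and of the 8 genes 5 were higher and 1 was lower. Il33 was just past the 2-fold limit, with a difference of 1.05, while Il1rn (0.94) and Il18 (-0.98) just missed it. In bulk tissue a change in the number of cells that express a gene and a change in RNA per cell cannot be told apart.

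**Figure D1:**
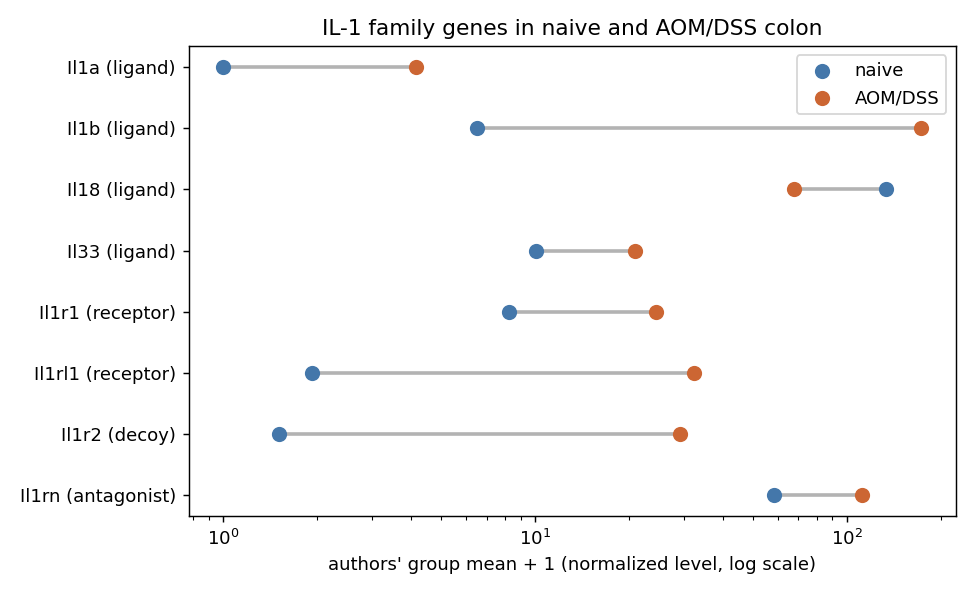
Authors' group means of the 8 listed IL-1 family genes in naive (blue) and AOM/DSS (orange) colon, as mean + 1 on a log axis, 1 point per group and no error bars since no value per mouse was used. On this axis Il1b moved farthest, from 5.50 to 171.6, and Il18 was the 1 gene with the lower mean in AOM/DSS tissue.

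Il1b had the largest log2(mean + 1) difference of the 8 genes, an order that depends on the pseudocount: with 0.1, Il1r2 (5.55) and Il1a (5.02) were above Il1b (4.94), and the plain folds of Il1r2 and Il1rl1 given below were also larger. Its mean was 5.50 in naive and 171.6 in AOM/DSS tissue, a 31.2-fold higher mean, and the log2(mean + 1) difference of 4.73 was above that of 98.9% of all listed genes. Il1b was the fifth most abundant of the 8 transcripts in naive tissue and the most abundant in AOM/DSS tissue. The gene lies on chromosome 2 from 129364570 to 129371139 on the minus strand (GRCm38), with 1 coding transcript. An antisense gene, Il1bos, overlaps Il1b but not the 3′ end from which reads are taken.

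Il1a encodes the form of IL-1 that is active without cleavage and is released by damaged cells. It was listed at 0 in naive tissue and had a mean of 3.14 in AOM/DSS tissue, for which no fold is given. Within AOM/DSS tissue the mean of Il1b was 54.7 times that of Il1a. Il1a lies from 129299610 to 129309972 on the same strand, a span of 71.5 kb together with Il1b, and the predicted gene Gm14023 on the other strand overlaps its 3′ end. The strand used in counting is not given in the sources used here, so reads of Il1a and Gm14023 cannot be told apart with certainty.

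Beside Il1a and Il1b, markers of myeloid cells also had higher means. Of 10 monocyte and macrophage markers 7 were listed, 5 of them past 2-fold and none lower, with summed means of 385 in naive and 967 in AOM/DSS tissue. Ly6c2, a marker of inflammatory monocytes, had the largest difference of this list (3.51) and Cd68 the smallest (0.89). Of 10 neutrophil markers 7 were listed and all 7 were past 2-fold, with summed means of 7.37 and 945. Most of the AOM/DSS sum came from S100a8 (451) and S100a9 (397), so it is not a measure of neutrophil number. S100a9, a calcium-binding protein of neutrophils and monocytes, led that list with a difference of 7.58, while Ngp, a neutrophil granule protein and the lowest of the list at 2.11, was listed at 0 in naive tissue. The part of either cell type in the Il1b and Il1a means was not tested.

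Il18 went the other way. This ligand, which colonic epithelial cells hold as a precursor at rest, had a mean of 132 in naive and 66.8 in AOM/DSS tissue, 1.98-fold lower, with a log2(mean + 1) difference of -0.98 that did not reach the 2-fold limit. Relative to the median difference of all listed genes the value was -1.34, which is past it. Il18 was the most abundant of the 8 transcripts in naive tissue and the third in AOM/DSS tissue. All 4 of its coding transcripts share a 3′ end on chromosome 9, so the 3′ reads cover each of them.

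Beside Il18, most of the listed markers of mature colonocytes differed. Of 10 colonocyte markers 9 were listed, 5 past 2-fold lower and 2 higher, and their summed means were 4229 in naive and 851 in AOM/DSS tissue, 4.97-fold lower. Slc26a3, the chloride-bicarbonate exchanger of surface colonocytes, had the lowest difference (-4.66), and the sodium-hydrogen exchanger Slc9a3 the highest (2.89). The 3 listed of 9 general epithelial markers were all within 2-fold, from -0.81 for Krt19 to -0.40 for Vil1, and their summed means of 6811 and 4359 differed 1.56-fold. The 1.98-fold lower mean of Il18 lay between these lists in size, and the part of epithelial content in its mean was not tested.

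Il33, a nuclear cytokine that acts as an alarm signal when cells are damaged, had a mean of 9.08 in naive and 19.9 in AOM/DSS tissue. The mean was 2.19-fold higher and the log2(mean + 1) difference was 1.05, or 0.69 relative to the median of all listed genes. Stromal and endothelial markers had smaller differences. Of 9 fibroblast markers 4 were listed, with summed means of 1052 and 1514 and differences from -0.61 for Dpt to 0.82 for Thy1. Of 8 endothelial markers 4 were listed, with summed means of 90.2 and 163 and differences from 0.51 for Vwf to 0.93 for Pecam1. None of these 8 markers was past 2-fold.

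**Figure D2:**
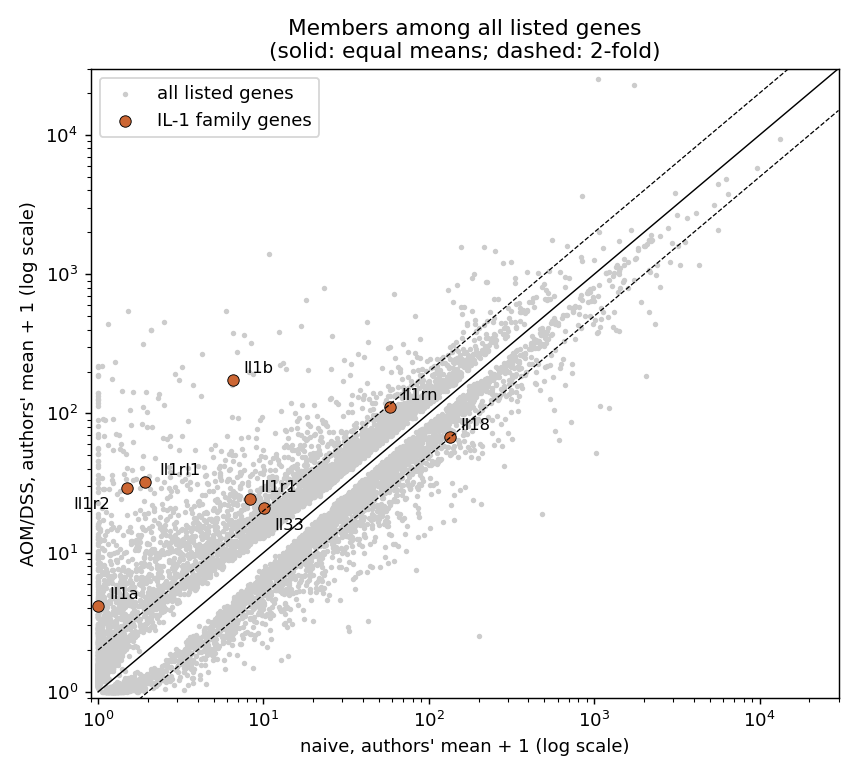
Each of the 7868 listed genes by its naive (x) and AOM/DSS (y) mean + 1, both on log axes, with the 8 IL-1 family genes in orange. Il1b, Il1r2 and Il1rl1 lie far above the dashed 2-fold lines, Il33 lies at the upper line, and Il1rn and Il18 lie just within the upper and lower lines. The empty band along the diagonal is where genes above the p-value limit would be.

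Among the receptors, Il1r1, which transmits the IL-1 signal, had a mean of 7.24 in naive and 23.4 in AOM/DSS tissue. Its mean was 3.23-fold higher, with a log2(mean + 1) difference of 1.57. Il1r1 was sixth of the 8 transcripts in AOM/DSS tissue, below the decoy Il1r2. Enteric glia, a cell type in which the study follows IL-1R1, had 5 of 8 markers listed, with summed means of 118 in naive and 77.1 in AOM/DSS tissue. Erbb3 alone, with means of 63.5 and 47.8, made up most of both sums, so they say little of the other listed glia markers. Within that list S100b was lowest (-1.41) and Sox2 highest (1.11), with 3 more within 2-fold. The part of glia in the Il1r1 mean was not tested.

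Il1rl1 encodes ST2, the receptor of IL-33, found on mast cells, group 2 innate lymphoid cells (ILC2) and tissue regulatory T cells. Its mean was 0.928 in naive and 31.3 in AOM/DSS tissue, 33.7-fold higher, with a difference of 4.06. The difference was above that of 98.5% of all listed genes, whereas that of its ligand Il33 was above that of 80.3%. Il1rl1 has 5 coding transcripts with 4 separate 3′ ends on chromosome 1. The longer ones end at 40465396 and 40465415, and the shorter ones at 40441407, 40446723 and 40448148. ST2 is known to exist as a membrane form and as a secreted form made from a shorter transcript, and the single mean per gene does not separate them.

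Markers of cell types that carry ST2 are given beside it. For regulatory T cells and ILC2, 7 of 11 markers were listed and all 7 were past 2-fold, from 1.63 for Klrg1 to 2.18 for Foxp3, with summed means of 8.24 and 51.3. The ILC2 cytokines Il5 and Il13 were not listed. For mast cells, 6 of 10 markers were listed and 2 were past 2-fold, with summed means of 19.3 and 48.3. Mcpt2, a protease of mucosal mast cells, was the highest of that list (3.56) and Fcer1a, a chain of the IgE receptor, the lowest (0.49), while Mcpt1 was listed at 0 in naive tissue. The summed means of these lists were 6.23-fold and 2.51-fold higher, and their part in the Il1rl1 mean was not tested.

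The 2 genes that restrain IL-1 differed in size. Il1r2, the decoy receptor, had a mean of 0.505 in naive and 28.3 in AOM/DSS tissue, 56.0-fold higher. On the log2(mean + 1) scale its difference was 4.28, the second largest of the 8 genes. Il1rn, the antagonist, had a mean of 57.3 in naive and 110.7 in AOM/DSS tissue, 1.93-fold higher, and its difference of 0.94 was within 2-fold. Il1rn was the second most abundant of the 8 transcripts in both groups. Il1rn has 4 coding transcripts with 4 separate 3′ ends, and Il1r2 has 3 with 3. The single mean per gene does not separate these forms.

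Both genes are known from myeloid cells, whose marker values are given above, and Il1rn is also known from keratinocytes and other stratified epithelium. Markers of stratified epithelium, which does not line the normal colon, were prominent in AOM/DSS tissue. All 10 were listed and past 2-fold, with summed means of 14.6 in naive and 1555 in AOM/DSS tissue, 106-fold higher. The keratin Krt13 had the largest difference (8.59) and the transcription factor Trp63 the smallest (2.25), and Krt6a was listed at 0 in naive tissue. Il1a, Il18 and Il33 are likewise known from stratified epithelium. The part of this tissue in the means of these genes was not tested.

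**Figure D3:**
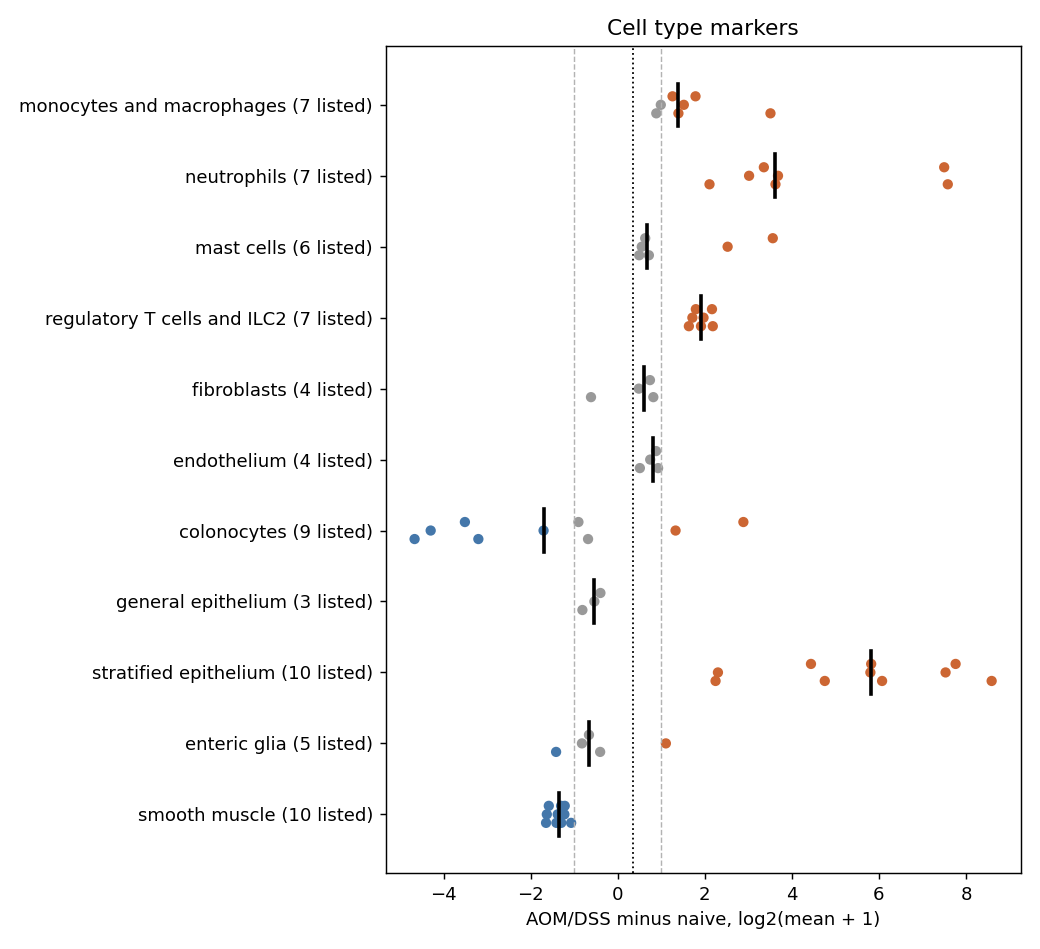
Differences in log2(mean + 1), AOM/DSS minus naive, of the listed markers of 11 cell types; each point is 1 gene, orange past 2-fold higher, blue past 2-fold lower and grey within, with a bar at the list's median and a dotted line at the median of all listed genes, 0.36. Neutrophil and stratified epithelium markers lie farthest to the right, and all 10 smooth muscle markers lie to the left of the lower 2-fold line.

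The make-up of the tissue also differed in its muscle. All 10 smooth muscle markers were past 2-fold lower, from -1.65 for Myl9 to -1.07 for Acta2, and their summed means were 12484 in naive and 4974 in AOM/DSS tissue. The muscle sum was thus 2.51-fold lower in AOM/DSS tissue. Muscle and tumor content of the pieces of tissue are not given per sample in the sources used here, and their part in the IL-1 family means was not tested. The colonocyte marker Slc26a3 (482 in naive and 18.1 in AOM/DSS tissue) and Krt8, a keratin of simple epithelium (3662 and 2527), were present in both groups.

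Ligands were then set against receptors, decoy and antagonist within each group. The 4 ligands summed to 147 in naive and 261 in AOM/DSS tissue, 1.78-fold higher. The signaling receptors Il1r1 and Il1rl1 summed to 8.17 and 54.6, 6.69-fold higher, and the decoy and antagonist to 57.8 and 139, 2.40-fold higher. All 8 genes together summed to 213 and 455, 2.14-fold higher. Of these sums the ligands made up 69.0% in naive and 57.4% in AOM/DSS tissue, the signaling receptors 3.84% and 12.0%, and the decoy and antagonist 27.1% and 30.5%.

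Within the ligand sum Il18 was the most abundant in naive and Il1b in AOM/DSS tissue. Il18 was 90.1% of the ligand sum in naive and 25.5% in AOM/DSS tissue, and Il1b was 3.74% and 65.7%. Il33 was 6.17% and 7.60%, and Il1a 0% and 1.20%. The ratio of Il18 to Il1b was 24.1 in naive and 0.389 in AOM/DSS tissue, 61.9-fold lower. Of all 8 genes Il1b accounted for 2.58% in naive and 37.7% in AOM/DSS tissue, and Il18 for 62.2% and 14.7%.

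**Figure D4:**
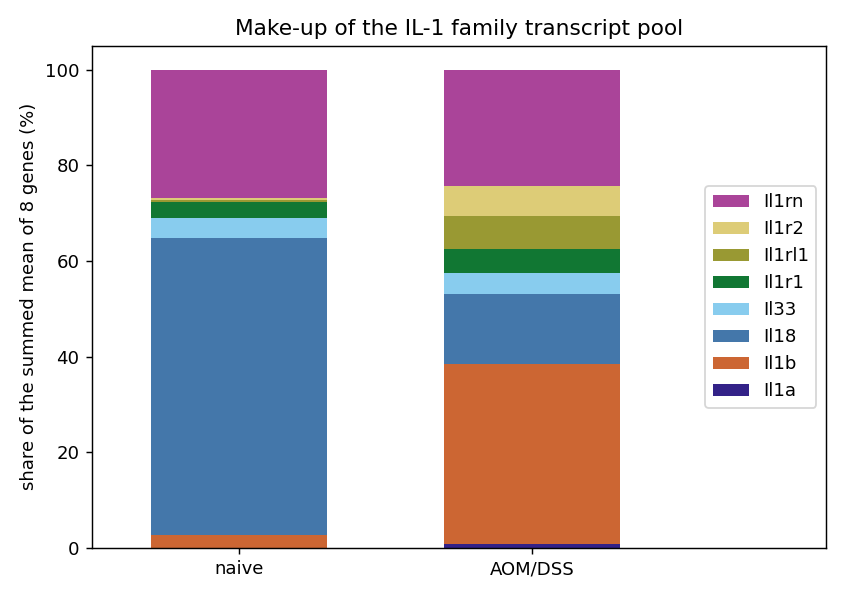
Share of each of the 8 genes in their summed mean, in percent, for naive and AOM/DSS tissue. Il18 takes up 62.2% of the naive bar and Il1b 37.7% of the AOM/DSS bar, while Il1rn takes 26.9% and 24.3%.

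Il1b and its antagonist changed order. The ratio of Il1b to Il1rn was 0.0960 in naive tissue, with Il1rn 10.4 times as abundant, and 1.55 in AOM/DSS tissue, 16.1-fold higher. With Il1a added to Il1b the ratio was 1.58 in AOM/DSS tissue, 16.4-fold above naive, and with Il1r2 added to Il1rn it was 1.24 against 0.0952 in naive tissue, a sum chosen after the values were seen. The ratio of Il1b to Il1r1 was 0.760 in naive and 7.34 in AOM/DSS tissue, 9.65-fold higher. These are ratios of transcripts, and neither protein nor cleaved cytokine was measured.

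The receptor genes lie next to each other on chromosome 1, in the order Il1r2, Il1r1, Il1rl2, Il1rl1, Il18r1 and Il18rap, all on the plus strand between 40074079 and 40551705 (GRCm38), a span of 478 kb. Of these 6 genes 4 were listed, and all 4 were past 2-fold higher, beside 20.9% of all 7868 listed genes. The differences were 4.28 for Il1r2, 1.57 for Il1r1, 4.06 for Il1rl1 and 2.19 for Il18rap. Il18rap, the accessory chain of the IL-18 receptor, had means of 0.463 and 5.68. Il1rl2 and Il18r1 were not listed, so nothing can be said of the cluster as a whole. The predicted gene Gm38070 lies within Il1r1 and was listed at 0 in naive tissue and 0.412 in AOM/DSS tissue, which is far below the Il1r1 mean.

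Of 11 further ligands, receptors and regulators of the family 6 were listed, 4 of them (66.7%) past 2-fold higher, none lower and 2 within, with a median difference of 1.60. Of all listed genes, 20.9% were higher and 9.75% lower. The means were low, and with a higher mean of at least 10 required the number higher was 0. Among the 6 listed genes were the 3 IL-36 ligands and their antagonist, which the table lists under older symbols. Il1f9, which encodes IL-36γ, had means of 0.0853 in naive and 7.08 in AOM/DSS tissue, a difference of 2.90. The other IL-36 genes were listed at 0 in naive tissue.

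In AOM/DSS tissue Il1f6, which encodes IL-36α, had a mean of 2.55 (difference 1.83), Il1f8, which encodes IL-36β, had 0.931 (0.95, within 2-fold), and Il1f5, which encodes the antagonist of the IL-36 receptor, had 1.59 (1.37). These 4 genes lie beside Il1rn on chromosome 2, from 24153161 at Il1f8 to 24283426 at Il1f5, and Il1rn starts at 24336853. IL-36 is known mainly from stratified epithelium, whose marker values are given above, and the part of that tissue in these means was not tested. The receptor of IL-36, Il1rl2, was not listed. Il18bp encodes the secreted protein that neutralizes IL-18, and its means were 35.7 and 58.7, a difference of 0.70 that is within 2-fold.

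Of 21 genes for the processing and release of the cytokines 9 were listed, 2 with a mean past 2-fold higher, 1 lower and 6 within. These shares, 22.2% and 11.1%, are near the 20.9% and 9.75% of all listed genes, and the median difference of 0.45 is near the overall 0.36. Nlrp3, the sensor of an inflammasome that activates caspase-1, had means of 0.808 in naive and 3.28 in AOM/DSS tissue, a difference of 1.24. Casp8, a caspase that can also cleave IL-1β, had means of 30.3 and 68.5, a difference of 1.15. Nlrp6, an inflammasome sensor of the intestinal epithelium, had means of 77.8 and 30.3, a difference of -1.33. Casp1, which cleaves IL-1β and IL-18, was not listed.

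Of 26 genes of the relay from receptor to nucleus 14 were listed, 2 past 2-fold higher and none lower, with a median of 0.66. The share higher, 14.3%, is not far from the 20.9% of all listed genes. The 2 were Rel, an NF-κB subunit of immune cells, with means of 2.55 and 11.0 (difference 1.75), and Irak3, an inhibitory IRAK, with means of 3.13 and 8.27 (difference 1.17). Feedback genes of the pathway had a median of 1.08: 8 of 10 were listed, 5 of them (62.5%) past 2-fold higher and none lower. Nfkbie, an inhibitor of NF-κB, had means of 2.81 and 16.9 (2.23), and Zc3h12a, an RNase that degrades Il6 and other cytokine transcripts, had means of 21.8 and 84.7 (1.91). Nfkbia, the main inhibitor of NF-κB, had means of 159 and 384 (1.27), and Tnfaip3, which encodes A20, had means of 10.7 and 24.4 (1.12). Nfkbiz, a nuclear cofactor of NF-κB, had means of 45.4 and 94.2 (1.04).

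**Figure D5:**
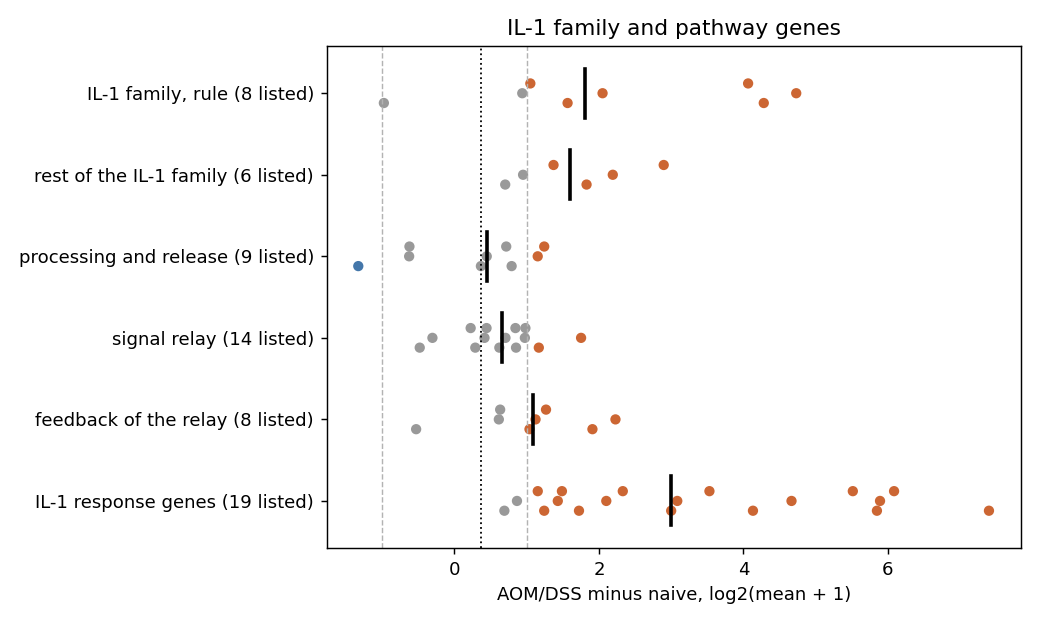
Differences in log2(mean + 1), AOM/DSS minus naive, of the listed genes of the IL-1 family and of 5 further lists of the pathway. Points, colors and lines are as in the plot of cell type markers, and the bar marks the list's median, from 0.45 for processing and release to 3.00 for IL-1 response genes.

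Genes that IL-1 is known to induce had the largest differences of the pathway lists. This list, like the others, was chosen with earlier results of these data known. Of its 20 genes 19 were listed, 17 (89.5%) past 2-fold higher, none lower and 2 within, with a median difference of 3.00. Of all listed genes, 20.9% were higher and 9.75% lower. The summed means of the 19 genes were 144 in naive and 1511 in AOM/DSS tissue, 10.5-fold higher. Saa3, an acute-phase protein, had means of 0.874 and 315, a difference of 7.40. Cxcl2, a chemokine that draws neutrophils, had means of 0.559 and 104.8, a difference of 6.08.

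The next 2 genes of that list were Nos2, the inducible nitric oxide synthase, with means of 0.878 and 110.4 (5.89), and Cxcl5, another neutrophil chemokine, with means of 5.52 and 374 (5.85). Csf3, which encodes the granulocyte growth factor G-CSF, was listed at 0 in naive tissue and had a mean of 1.22 in AOM/DSS tissue. Csf2 was not listed. These genes also respond to other inflammatory signals, and which of them IL-1 accounts for was not tested.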

How the data were processed

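Colonic RNA of 4 naive and 7 AOM/DSS mice was sequenced from 3′ end libraries (QuantSeq, Lexogen). According to the methods and the submitters' processing notes (Partek, cutadapt, STAR), trimming, alignment to mm10 with STAR, quantification against Ensembl transcripts and normalization of gene counts were done by the authors. The values used are the deposited signal of each gene, as 1 least-squares mean per group that the authors derived with the gene-specific analysis of Partek Flow. The normalization, and therefore what 1 unit of signal is in reads, is not given in the sources used here. A planned read number is stated in the methods, but the reads behind each sample's values are unknown. Scaling moves all genes of a library together and a least-squares mean hides the spread between mice. The value 0.0001 stands for a mean of 0, which 500 naive and 69 AOM/DSS means have. The table also holds columns of the authors' own comparison (p-value, adjusted p and fold), which were not used, except that the p-value column was read to check that 0 of 7868 genes lie above 0.05.

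Differences were computed as log2(mean + 1), with a pseudocount of 1, and called at 2-fold. Fold changes are plain ratios of means, and none is given where a group is listed at 0. On this scale the change of low genes is understated. The code was checked by putting known folds, without noise, into the naive means. This shows only that the formula is computed as stated. Of the list names 4 (the IL-36 genes) were matched to the older symbols in the table through RefSeq's synonyms. Computation used Python 3.11.15, numpy 2.4.6, pandas 2.3.3 and matplotlib 3.10.9. Of the gene names 7727 were found in GENCODE M21, which gave the positions, and promoters of all 10 genes were matched in RefSeq by symbol. Alternatives were pseudocounts of 0.1 and 5, centring on the median difference, a higher mean of at least 10, a call at 4-fold, Il1a plus Il1b as the ligand and 1 added to each mean of a ratio.

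The 10 genes, the pathway lists and the markers were chosen with earlier results of these data known. All 10 genes are named. In each other pathway list every gene past 2-fold is named where these are 6 or fewer, otherwise the 4 largest higher and the 2 largest lower, together with genes listed at 0, and in marker lists the highest and lowest difference. Genes named beyond this rule, such as Il18bp, Casp1, Csf2, Il5, Il13 and Krt8, were chosen after their values were seen.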

Additional observations from a re-analysis of the deposited data

How the results depend on the processing

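A change of pseudocount or of the fold limit cannot reverse the direction of a gene, so those settings do not test it. Centring could, and after it each of the 8 listed genes kept its direction. Il1b, Il1r2 and Il1rl1 stayed past the limit with each pseudocount, after centring and at 4-fold. With a pseudocount of 0.1, Il1r2 (5.55) and Il1a (5.02) rather than Il1b (4.94) had the largest differences. With a pseudocount of 5, Il1a (0.70) and Il33 (0.82) fell within 2-fold. After centring, Il33 (0.69) fell within it and Il18 (-1.34) passed it, so that 1 of the 8 genes was lower. At 4-fold, Il1r1 (1.57) and Il33 (1.05) were no longer past the limit. The change of the Il1b to Il1rn ratio was 16.4-fold with Il1a included and 13.9-fold with 1 added to each mean, that of Il1b to Il1r1 8.97-fold and the drop of Il18 to Il1b 52.3-fold.

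Of all listed genes, the share past the limit and higher was 20.9%, against 30.97% with a pseudocount of 0.1, 11.5% with 5 and 7.511% at 4-fold. The share lower was 9.75%, against 16.41% with 0.1, 5.16% with 5, 21.59% after centring and 1.157% at 4-fold. The number of relay genes with a higher mean was 2, against 4 with 0.1, 1 each with 5, after centring and with a higher mean of at least 10, and 0 at 4-fold. For processing and release it was 2, against 3 with 0.1, 1 each with 5 and with a mean of at least 10, and 0 after centring and at 4-fold, where the 1 lower gene was also lost (0). For feedback genes it was 5, against 3 with 5, 2 after centring and 1 at 4-fold. For the rest of the family it was 4, against 5 with 0.1, 1 with 5, 2 at 4-fold and 0 with a mean of at least 10. For IL-1 response genes it was 17, against 14 each with 5 and with a mean of at least 10, 15 after centring and 12 at 4-fold. A larger pseudocount, the filter and the 4-fold call reduce such counts by construction. No paired analysis was possible because the table holds 1 mean per group and no value per mouse, and no mouse could be left out. The number of reads behind low means, such as those of Il1a, Il1r2 and Il1rl1 in naive tissue, is unknown.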

Other observations

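Other ratios within the family were computed after the values were seen and are given as values. The decoy to receptor ratio, Il1r2 to Il1r1, was 0.0697 in naive and 1.21 in AOM/DSS tissue, 17.3-fold higher, or 6.57-fold higher with 1 added to each mean. In AOM/DSS tissue the decoy transcript was thus listed above that of the signaling receptor. The ratio of the alarm cytokine to its receptor, Il33 to Il1rl1, was 9.78 in naive and 0.636 in AOM/DSS tissue, 15.4-fold lower, or 8.08-fold lower with 1 added. The ratio of Il18 to its soluble inhibitor Il18bp was 3.71 in naive and 1.14 in AOM/DSS tissue, 3.26-fold lower. The ratio of Il1b to the decoy Il1r2 has no fixed direction: it was 10.9 in naive and 6.07 in AOM/DSS tissue on the means as deposited, and 4.32 and 5.90 with 1 added to each mean, because the naive mean of Il1r2 is low.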
